A study of Danio rerio with 18 samples.

Results

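Myelin genes fell steeply in zebrafish caudal fin clips over the days after amputation, while limma called no change over time for sox10, a transcription factor gene of the same glial lineage, and the growth cone gene gap43 peaked on the first day. These data follow 10 genes chosen by name as genes of Schwann cells and axons. The 8 described here are the myelin genes mbpa, mbpb and plp1b, the transcription factor genes sox10 and foxd3, the receptor gene erbb3b, and the neuronal genes gap43 and elavl3. Symbols were matched irrespective of case, and an ID named by the stem without its a or b letter also counted. Of 32520 gene IDs in the table, 11 matched, and beside erbb3b stands a further ID named ERBB3, whose letter the table does not give, so that 9 IDs are described with their values. All 11 IDs, like 22779 of the 32520, had a normalised count of at least 10 in at least 3 libraries and were tested.

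The knockout (KO) fish are labelled homozygous for loss of s1, a silencer tied to regeneration, in the outbred Ekkwill (EK) background. They were compared with wild-type (WT) EK siblings, and all fish were about 4 to 8 months old. The caudal fin was cut at 50% of its length, and clips were collected at 0, 1 and 4 days post amputation (dpa), in 3 pools of 10 fish for each genotype and time, 18 libraries in all. The design asks which genes are higher in KO fins at each time. A silencer is non-coding DNA, so its loss cannot be read from a transcript of its own. The genotype labels were not checked here against other transcripts. Bulk RNA from whole clips was measured, so fewer cells of a type and less RNA per cell cannot be told apart. The labels do not say how much of the old stump a clip at 1 or 4 dpa held.

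Schwann cells wrap the sensory and motor axons that run along the rays of the fin. A myelinating Schwann cell spirals its membrane around an axon and packs it with structural proteins such as myelin basic protein. It depends on Sox10 throughout life and on ErbB receptors that read neuregulin from the axon. When an axon is severed, the part beyond the cut degenerates, and in mammals the Schwann cells there shut down myelin genes and return to an immature or repair state, while the neuron regrows its axon with growth cone proteins such as Gap43. Other cells use some of these genes too: sox10, foxd3 and erbb3b are also active in neural crest and pigment cells.

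Between 58.6 and 155 M reads (M, mega) per library fell on genes, but the 5 most abundant genes took between 2.71% and 90.5% of them. The reads left for all other genes were 16.4 to 19.7 M in KO and 10.5 to 10.9 M in WT at 4 dpa, where 3 reads equal a normalised count of 7.42 to 7.47 in WT libraries. A library in which this share was under 20% is called a low-share library (KO 0 dpa replicate 2, WT 0 dpa replicates 2 and 3 and KO 1 dpa replicate 1). At 0 dpa the low-share libraries lay above the others in both genotypes for mbpa, mbpb, plp1b, sox10 and gap43, and the part of this share in the results was not tested beyond the alternatives given beside them. Among genes with 1 to 20 reads, between 76.2% and 87.4% in each library had an even number of reads, the cause of which was not tested. The fin origin shows in the actinotrichia gene and1, at 552 to 1143 normalised counts at 0 and 1 dpa and 169744 to 246395 at 4 dpa. The posterior Hox gene hoxd13a was low, at 11.3 to 54.4 normalised counts, and hoxa13b was listed at 0 throughout.

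Over the first 4 days the myelin genes mbpa, mbpb and plp1b and the receptor gene erbb3b lost RNA in both genotypes. In KO fins 6 of the 11 IDs fell between 4 and 0 dpa (mbpa, mbpb, plp1b and erbb3b among them), where 25.7% of all tested genes fell. In WT fins 5 fell (mbpa, mbpb, plp1b and erbb3b among them), where 29.6% of all tested genes fell. The 11 IDs had a median log2 change of -1.39 in KO and -0.93 in WT, beside -0.02 and -0.03 over all tested genes. At 1 dpa against 0 dpa 4 IDs fell in KO fins (plp1b, erbb3b, ERBB3 and elavl3) and gap43 rose, where 13.9% of tested genes fell and 15.4% rose. In WT fins 3 fell at this time (mbpb, plp1b and erbb3b) and gap43 rose, where 21.1% fell and 19.1% rose. From 1 to 4 dpa 5 IDs fell, mbpa, mbpb, plp1b and gap43 among them, and elavl3 rose in KO (background 16.2% and 11.6%), and 2 fell in WT, gap43 among them (background 6.61%). All calls are limma calls at an adjusted p under 0.05, on log2(normalised count + 1). elavl3 passed the filter through KO libraries at 0 and 4 dpa alone, so its KO calls are not independent of the filter.

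**Figure D1:**
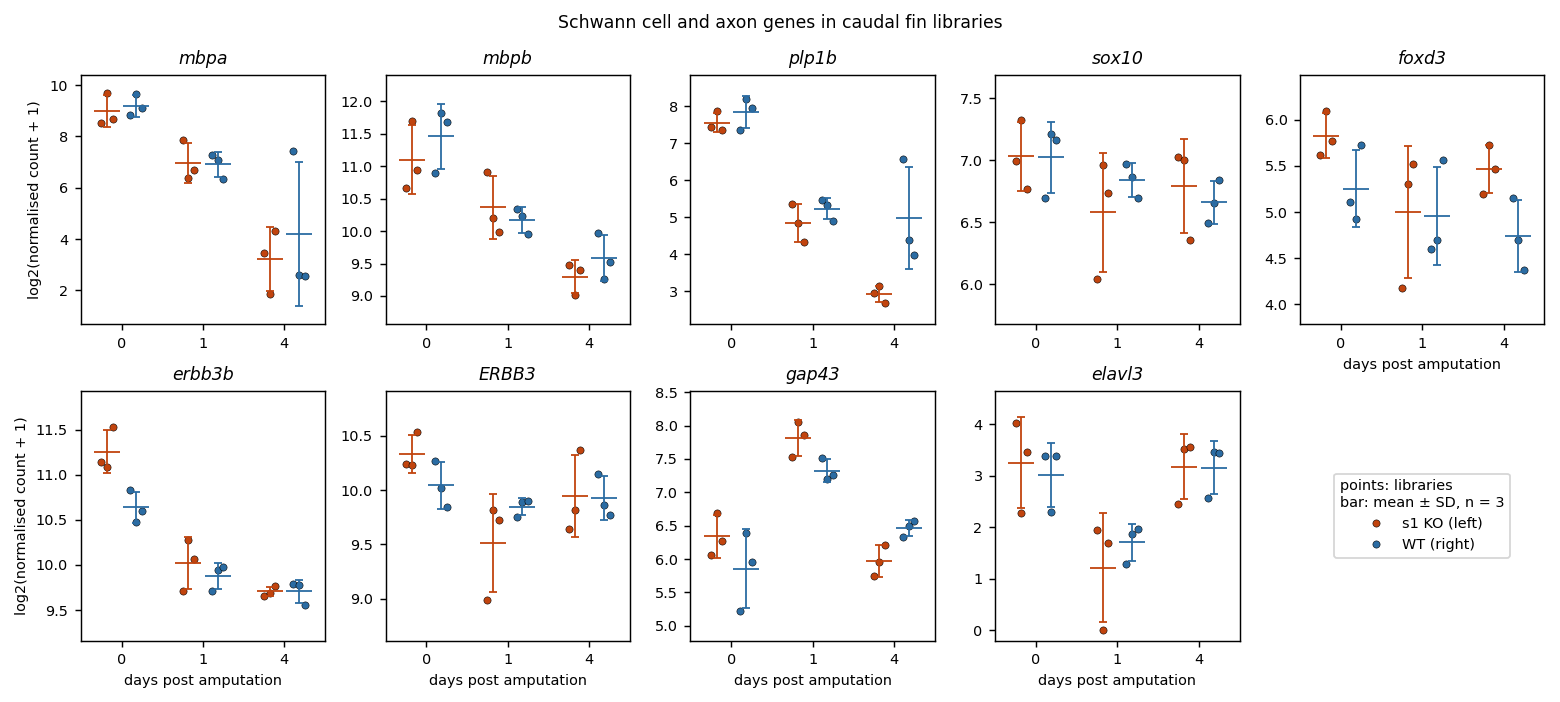
Level of the 9 IDs described in every library, as log2(normalised count + 1), against days post amputation, with KO left (orange) and WT right (blue) and bars for the mean ± SD of 3 libraries. The panels of mbpa and plp1b step down at 1 dpa, and at 4 dpa the KO points of both are lower again. WT 4 dpa replicate 1 (173 and 94.0 normalised counts) sits far above the other WT libraries of that time. gap43 peaks at 1 dpa in both genotypes.

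mbpa (ENSDARG00000036186) is one of the zebrafish copies of the myelin basic protein gene, whose product compacts the inner faces of the myelin membrane. It had 372, 830.2 and 413 normalised counts in KO fins at 0 dpa, 231, 82.9 and 101 at 1 dpa and 10.1, 2.60 and 18.9 at 4 dpa. WT fins had 453, 803 and 549 at 0 dpa, 156, 134 and 81.1 at 1 dpa and 173, 4.98 and 4.95 at 4 dpa. The values at 4 dpa rest on 9, 2 and 14 reads in KO and 70, 2 and 2 reads in WT, and WT replicates 2 and 3 are below what 3 reads give. At both later times every library lay under all libraries of its genotype at 0 dpa. The fall from 0 to 4 dpa passed in KO (log2 -5.77, SE 0.96, adjusted p = 1.65e-04) and in WT (-4.99, SE 0.96, adjusted p = 4.50e-04). In KO fins 9 of the 22779 tested genes had a lower log2 change than mbpa, and in WT fins 38 did. At such counts the added 1 weighs on the size of the fitted change, and single libraries do too. Without KO 4 dpa replicate 2 the change is -5.09 in KO. Without WT 4 dpa replicate 1 it is -6.62 in WT, against -4.19 without replicate 2 and -4.18 without replicate 3. Over all alternatives run the change lay between -6.32 and -4.64 in KO and between -6.62 and -3.24 in WT.

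mbpa was 2.00 (KO) and 2.28 (WT) log2 units lower at 1 than at 0 dpa, which limma did not call (adjusted p = 0.129 and 0.0673). edgeR and DESeq2 called the WT difference (adjusted p = 0.0242 and 0.0435). From 1 to 4 dpa KO fell by 3.76 (adjusted p = 0.00925; -3.08, adjusted p = 0.0494, without KO 4 dpa replicate 2). WT differed by -2.71 over the same interval (adjusted p = 0.0692), and by -4.33 (adjusted p = 2.34e-04) without WT 4 dpa replicate 1.

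mbpb (ENSDARG00000089413), the other mbp copy, kept more of its starting level. KO fins had 1622, 3324 and 1973 normalised counts at 0 dpa, 1930.2, 1171 and 1014 at 1 dpa and 714, 514 and 674 at 4 dpa. WT fins had 1899.8, 3620.2 and 3284 at 0 dpa, 1289, 1201 and 991 at 1 dpa and 1004, 613 and 732 at 4 dpa. At 4 dpa 27.5% of the mean at 0 dpa was left in KO and 26.7% in WT. mbpa had 1.96% left in KO and 10.1% in WT, where replicate 1 carries the value: without that library WT had 0.825% of mbpa and 22.9% of mbpb left. mbpb fell from 0 to 4 dpa in KO (log2 -1.81, SE 0.31, adjusted p = 1.99e-04) and in WT (-1.88, SE 0.31, adjusted p = 1.34e-04), with no overlap of libraries. At 1 dpa WT had fallen (-1.29, adjusted p = 0.00384, but 0.0512 without the low-share libraries), and KO, where replicate 1 was still at 1930.2, differed by -0.74 (adjusted p = 0.0815). Without that replicate, the low-share library of its group, the KO difference is -1.01 (adjusted p = 0.0216), and it also passes without KO 0 dpa replicate 1 (-0.96, adjusted p = 0.0374). The KO fall from 1 to 4 dpa (-1.07, adjusted p = 0.0173) is lost without KO 1 dpa replicate 1 (-0.79, adjusted p = 0.103) and without KO 4 dpa replicate 2 (-0.93, adjusted p = 0.0729).

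plp1b (ENSDARG00000011929) encodes a proteolipid of the myelin membrane and was already called lower at 1 dpa in both genotypes. It had 174, 233 and 164 normalised counts in KO fins at 0 dpa, 39.96, 27.9 and 19.1 at 1 dpa and 6.71, 7.79 and 5.41 at 4 dpa. WT fins had 164, 295 and 249 at 0 dpa, 42.8, 39.4 and 29.0 at 1 dpa and 94.0, 19.9 and 14.8 at 4 dpa. By 1 dpa all 6 libraries had fallen to 42.8 or less, against at least 164 in the 6 libraries at 0 dpa.

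plp1b fell from 0 to 1 dpa in KO (log2 -2.72, SE 0.50, adjusted p = 6.43e-04 in limma) and in WT (-2.62, SE 0.50, adjusted p = 7.91e-04). At 4 dpa it was 25.0-fold lower than at 0 dpa in KO (-4.64, adjusted p = 2.42e-06) and 7.29-fold lower in WT (-2.87, adjusted p = 2.10e-04). KO fell further from 1 to 4 dpa (-1.93, adjusted p = 0.00991), although this call is lost without KO 1 dpa replicate 1 (-1.67, adjusted p = 0.0546), and WT differed by -0.25 (adjusted p = 0.769). The KO values at 4 dpa rest on 6, 6 and 4 reads and the WT values on 38, 8 and 6. Without WT 4 dpa replicate 1 the WT change from 0 to 4 dpa is -3.66.

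With the share of the 5 most abundant genes as a covariate, 4 against 0 dpa did not pass for mbpa, mbpb and plp1b in WT (adjusted p = 0.122, 0.128 and 0.0867), and all 3 still passed in KO (adjusted p = 0.00413, 0.00222 and 5.06e-05). Over all 22779 tested genes this fit called 30.5% in KO and 15.4% in WT, where the fit without the covariate called 49.0% in KO and 55.6% in WT. Reads of mbpa and mbpb may be shared between near-identical stretches, and how such reads were counted is not given in the sources used here.

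WT 4 dpa replicate 1 was the high library for 3 of the 11 IDs (mbpa and plp1b among them), at 3 times or more the level of both other WT libraries, with 1 added to each value. Among all tested genes this held for 354 of 22779 (1.55%), where replicate 2 stood so far above the others for 0.659% and replicate 3 for 0.751%. Markers of lateral line hair cells, a sensory organ of fish skin with its own nerve and glia, are given here beside the myelin values. Of 12 tested lateral line IDs (15 in the table), 3 fell from 0 to 4 dpa in both genotypes (sox21a, pvalb8 and s100t), a share near the background of 25.7% lower in KO and 29.6% lower in WT. Their log2 changes in KO were -4.29 for sox21a, -4.16 for pvalb8 and -4.12 for s100t, beside -4.64 for plp1b, so a steep fall was not particular to the myelin genes. A copy of MYO6 rose in WT (0.60, adjusted p = 0.0314), and none rose in KO. The list had medians of -0.37 in KO and -0.10 in WT. The summed normalised count of the list was 4017 to 5516 in KO and 3398 to 4851 in WT at 0 dpa, 2804 to 3139 in KO and 2743 to 3176 in WT at 1 dpa, and 2689 to 2894 in KO and 2684 to 3067 in WT at 4 dpa. pvalb8 had 317, 99.7 and 89.0 normalised counts and s100t 104, 24.9 and 29.7 in WT fins at 4 dpa, with replicate 1 the high library again. By the rule of 3 times or more, replicate 1 was the high library for 2 of the 12 tested lateral line IDs. It was so for 1 of 21 tested IDs of other Schwann cell genes and 0 of 26 of other axon and neuron genes. The hair cell gene ATOH1 was listed at 0 in every library. What part the lateral line has in the myelin values was not tested.

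**Figure D2:**
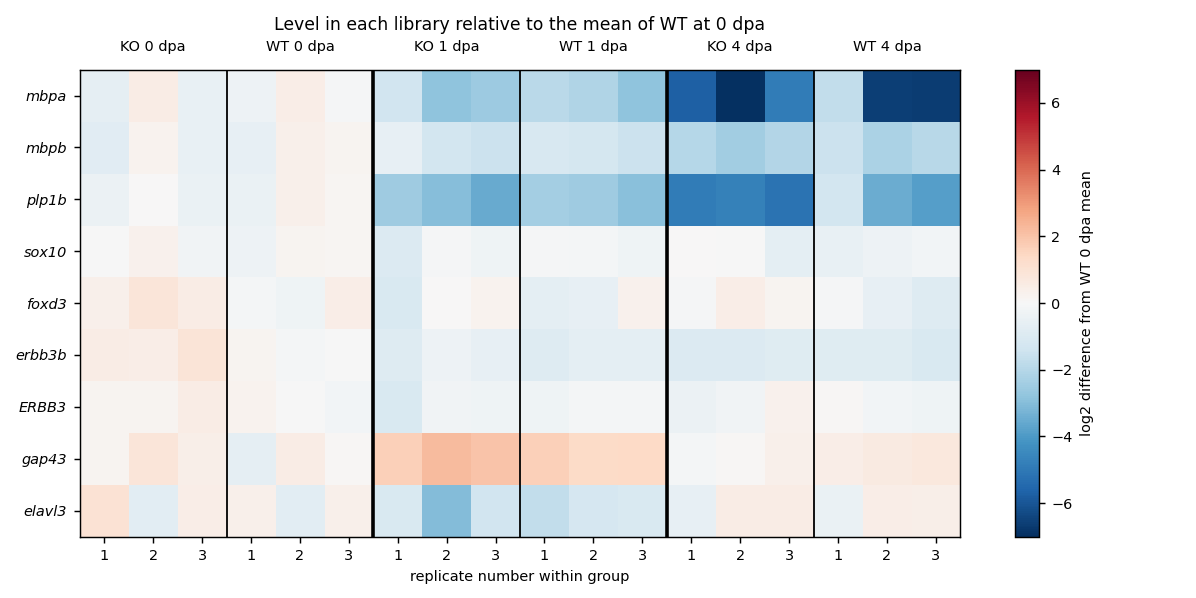
Heat map of the 9 IDs described (rows) in the 18 libraries (columns, KO left of WT at each time), coloured by the log2 difference from the WT mean at 0 dpa. The rows of mbpa and plp1b are palest in WT 4 dpa replicate 1 among the 4 dpa columns (-1.75 for mbpa), and no sox10 value is as low as any 4 dpa value of these rows.

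sox10 (ENSDARG00000077467) encodes the transcription factor that Schwann cells need at every stage, and it is also active in neural crest and pigment cells. Its normalised counts in KO fins were 127, 159.7 and 108 at 0 dpa, 64.9, 124 and 106 at 1 dpa and 129.7, 127 and 81.2 at 4 dpa. In WT fins they were 103, 147 and 143 at 0 dpa, 124, 116 and 103 at 1 dpa and 89.0, 99.7 and 114 at 4 dpa. The 3 times overlapped in both genotypes, and at 4 dpa 85.7% of the mean at 0 dpa was left in KO and 77.0% in WT. No change over time was called: the 4 against 0 dpa difference was -0.23 in KO (95% interval -0.79 to 0.32) and -0.36 in WT (-0.92 to 0.19) on the log2 scale. These intervals allow a loss of less than 1 log2 unit, and the mbpa estimates of -5.77 and -4.99 lie outside them.

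foxd3 (ENSDARG00000021032) encodes a transcription factor of neural crest and early glial precursors. KO fins had 48.3, 67.3 and 53.7 normalised counts at 0 dpa, 17.1, 38.4 and 45.0 at 1 dpa and 35.8, 52.0 and 43.3 at 4 dpa. WT fins had 33.6, 29.5 and 51.9 at 0 dpa, 23.2, 25.0 and 46.4 at 1 dpa and 34.6, 24.9 and 19.8 at 4 dpa. In KO all libraries at 1 dpa lay below those at 0 dpa (log2 difference -0.83, adjusted p = 0.111 in limma), and no time comparison of foxd3 passed in either genotype in that fit. With the share of the 5 most abundant genes as a covariate this KO difference passed (-1.05, adjusted p = 0.0374).

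erbb3b (ENSDARG00000036993) encodes the receptor through which developing zebrafish Schwann cells read axonal neuregulin, and it is needed by pigment cell progenitors as well. KO fins had 2264, 2178 and 2962 normalised counts at 0 dpa, 836, 1242 and 1074 at 1 dpa and 808, 826 and 869.8 at 4 dpa. WT fins had 1818, 1429 and 1552 at 0 dpa, 836, 985 and 1008 at 1 dpa and 883, 875 and 754 at 4 dpa. All libraries at 1 and 4 dpa lay below all libraries at 0 dpa of their genotype, and most of the loss was present at 1 dpa. erbb3b fell from 0 to 1 dpa by 1.24 in KO (SE 0.17, adjusted p = 5.03e-05) and by 0.76 in WT (SE 0.17, adjusted p = 0.00268) on the log2 scale. From 0 to 4 dpa it fell by 1.55 in KO (adjusted p = 3.31e-06) and by 0.93 in WT (adjusted p = 3.23e-04).

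The ID named ERBB3 (ENSDARG00000006202) had 1 called change. It had 1207, 1198 and 1486 normalised counts in KO fins at 0 dpa, 508, 900.3 and 848 at 1 dpa and 799, 903 and 1322 at 4 dpa. WT fins had 1229, 1039.7 and 916 at 0 dpa, 863, 949 and 955 at 1 dpa and 1135, 932 and 871 at 4 dpa. It fell from 0 to 1 dpa in KO (log2 -0.82, SE 0.22, adjusted p = 0.0110), a call lost without KO 0 dpa replicate 3 (-0.72, adjusted p = 0.0511), and the WT difference was -0.19. Its 4 against 0 dpa differences of -0.39 in KO and -0.12 in WT did not pass; without KO 4 dpa replicate 3 the KO value is -0.60 (adjusted p = 0.0475). Reads may be shared between ERBB3 and erbb3b. NRG1, the gene of the ligand neuregulin, chosen here after its values were seen, fell from 0 to 4 dpa by 2.15 in KO (adjusted p = 1.08e-06) and by 1.30 in WT (adjusted p = 1.42e-04).

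gap43 (ENSDARG00000099744), whose product is abundant in growth cones of extending axons and is also made by some Schwann cells, was the one ID that rose at 1 dpa. KO fins had 65.7, 102 and 76.3 normalised counts at 0 dpa, 184, 265 and 231 at 1 dpa and 52.5, 61.0 and 73.0 at 4 dpa. WT fins had 36.3, 82.5 and 61.2 at 0 dpa, 182, 146 and 152 at 1 dpa and 79.2, 89.7 and 94.0 at 4 dpa. In both genotypes every library at 1 dpa was above every library of the other times, at a mean of 279% of the 0 dpa level in KO and 267% in WT. gap43 rose from 0 to 1 dpa in KO (log2 1.48, SE 0.27, adjusted p = 6.31e-04) and in WT (1.47, SE 0.27, adjusted p = 5.98e-04). In KO 1005 of the 22779 tested genes (4.41%) had a higher change, and in WT 1366 (5.997%).

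From 1 to 4 dpa gap43 fell by 1.85 in KO (adjusted p = 1.24e-04) and by 0.86 in WT (adjusted p = 0.0429). The WT call is lost when any of the 6 libraries compared is left out (adjusted p from 0.0690 to 0.161). At 4 dpa against 0 dpa KO differed by -0.37 (95% interval -0.94 to 0.20, adjusted p = 0.271) and WT by 0.61 (0.04 to 1.18, adjusted p = 0.0639). The WT difference passes without WT 0 dpa replicate 2 (0.87, adjusted p = 0.0162) and without the low-share libraries (1.24, adjusted p = 0.00241).

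elavl3 (ENSDARG00000014420) encodes an RNA-binding protein of neuronal cell bodies, which lie outside the fin, and its counts were near the limit of detection. KO fins had 35, 4 and 19 reads at 0 dpa, 4, 0 and 2 at 1 dpa and 4, 8 and 8 at 4 dpa. WT fins had 24, 4 and 13 reads at 0 dpa, 2, 4 and 2 at 1 dpa and 2, 4 and 4 at 4 dpa. In normalised counts KO averaged 9.69 ± 5.69, 1.70 ± 1.504 and 8.56 ± 3.55 at 0, 1 and 4 dpa, and WT averaged 7.56 ± 3.14, 2.33 ± 0.769 and 8.27 ± 2.88 (SD, n = 3 each). elavl3 reached the filter level of 10 normalised counts only in KO 0 dpa replicate 1 (15.2) and KO 4 dpa replicates 2 and 3 (10.4 and 10.8). The lower KO level at 1 than at 0 dpa was called (log2 -2.04, adjusted p = 0.0243). So was the higher KO level at 4 than at 1 dpa (1.96, adjusted p = 0.0321). These 2 calls place high the groups that let elavl3 pass, so they are not independent of the filter. The first is lost without KO 0 dpa replicate 1 (-1.65, adjusted p = 0.0973), KO 0 dpa replicate 3 (-1.93, adjusted p = 0.0738) or KO 1 dpa replicate 2 (-1.43, adjusted p = 0.132). The second is lost without KO 1 dpa replicate 2 (1.35, adjusted p = 0.129), KO 4 dpa replicate 2 (1.79, adjusted p = 0.0983) or KO 4 dpa replicate 3 (1.76, adjusted p = 0.109). Over the 15 alternatives run for elavl3, the first call was lost in 4 and the second in 6. WT differed in the same directions (-1.31, adjusted p = 0.112, and 1.45, adjusted p = 0.137).

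None of the 11 IDs differed past the threshold between KO and WT fins at any time in limma. Beside 0 members called at an adjusted p under 0.05, 1 ID at 0 dpa, 0 at 1 dpa and 1 at 4 dpa had an unadjusted p under 0.05, and edgeR called 0 at each time. Over all 22779 tested genes 1093, 465 and 925 had an unadjusted p under 0.05 in limma at 0, 1 and 4 dpa. DESeq2 called 0 at 0 and 1 dpa and 1 at 4 dpa, plp1b. Over all tested genes limma called 0.101% at 0 dpa, 0.00439% at 1 dpa and 0.0351% at 4 dpa. Groups without overlap were seen for 1 ID at 0 dpa (background 7.14%), 1 at 1 dpa (8.45%) and 3 at 4 dpa (11.0%). They were erbb3b at 0 dpa, gap43 at 1 dpa, and foxd3, gap43 and plp1b at 4 dpa.

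erbb3b averaged 2468 ± 429.9 normalised counts in KO fins and 1599.7 ± 199 in WT fins at 0 dpa (SD, n = 3 each), with every KO library above every WT library. The log2 difference was 0.62 (95% interval 0.26 to 0.98, adjusted p = 0.438 in limma, 0.422 in edgeR and 0.0678 in DESeq2). At 1 dpa it was 0.14 (-0.22 to 0.50), and at 4 dpa the means were 835 ± 31.7 in KO and 837 ± 72.0 in WT, with an interval of -0.36 to 0.36. plp1b averaged 6.64 ± 1.19 in KO fins and 42.9 ± 44.3 in WT fins at 4 dpa. The log2 difference was -2.06 (95% interval -3.11 to -1.01, adjusted p = 0.364 in limma, 0.510 in edgeR and 0.0132 in DESeq2), and without WT 4 dpa replicate 1 it was -1.27 (adjusted p = 0.375). foxd3 was higher in all 3 KO libraries than in the WT libraries at 4 dpa, by 0.72 (-0.07 to 1.52) on the log2 scale. gap43 was higher in KO at 1 dpa by 0.49 (-0.08 to 1.06) and differed by -0.50 (-1.07 to 0.07) at 4 dpa, with no overlap at either time.

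For the other members the intervals limit what these libraries could show. The KO minus WT difference at 4 dpa was -0.99 for mbpa (-3.01 to 1.04) and -0.29 for mbpb (-0.94 to 0.36). Without WT 4 dpa replicate 1 the mbpa difference is 0.63. sox10 differed by 0.13 (-0.42 to 0.69) at 4 dpa and by -0.26 (-0.81 to 0.29) at 1 dpa. The test of whether the change over time differed between genotypes called 0 of the 11 IDs in limma, edgeR and DESeq2, and 0% of all tested genes in limma. For 4 against 0 dpa the unadjusted p was under 0.05 for 3 IDs: plp1b (KO change minus WT change -1.77), erbb3b (-0.62) and gap43 (-0.98), each at an adjusted p of 0.992. Over all 22779 tested genes this limma test gave 888 with an unadjusted p under 0.05. For 1 against 0 dpa the unadjusted p was under 0.05 for 0 IDs, and for 950 of the 22779 tested genes. Averaged over the times, limma called 0 of the 11 IDs and 0.140% of all tested genes, with 2 IDs at an unadjusted p under 0.05 (plp1b at -0.91 and erbb3b at 0.25), and edgeR and DESeq2 called 0. In that limma average 730 of the 22779 tested genes had an unadjusted p under 0.05.

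**Figure D3:**
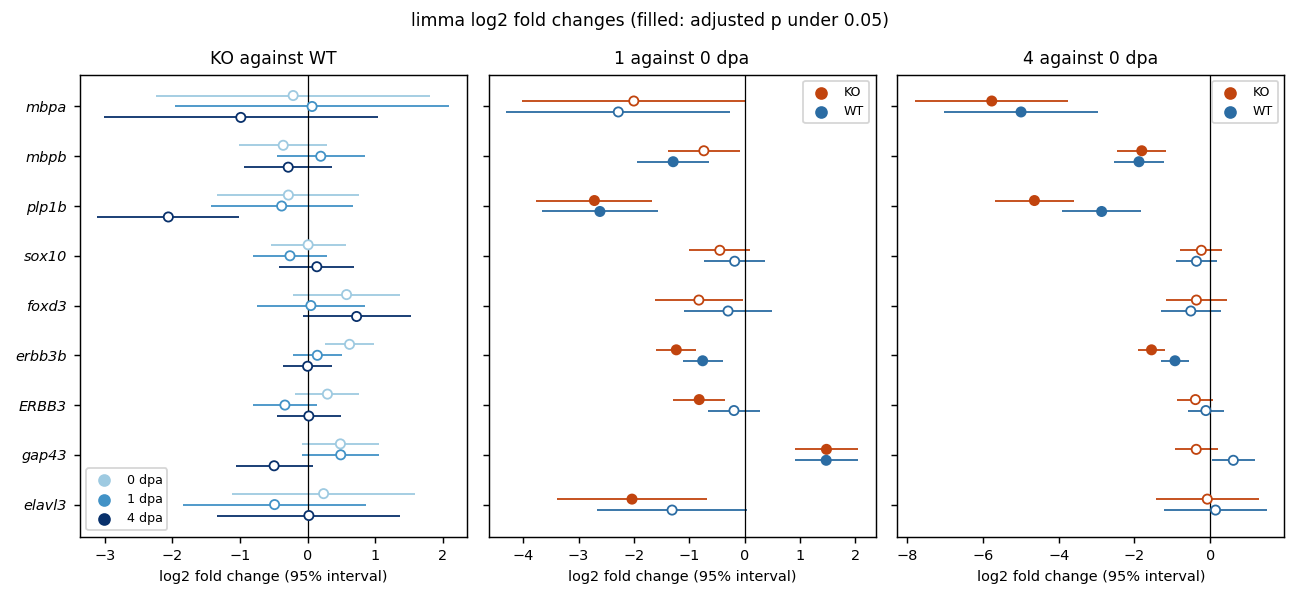
Log2 difference of the 9 IDs described with its 95% interval for KO against WT at each time (left), 1 against 0 dpa (middle) and 4 against 0 dpa (right), with filled points for an adjusted p under 0.05. No KO against WT point is filled, the gap43 points at 1 dpa lie at 1.48 in KO and 1.47 in WT, and the mbpa points at 4 dpa lie at -5.77 in KO and -4.99 in WT.

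Among themselves the myelin genes varied together over the 18 libraries, which share their times and their depth. Pearson's r of log2(normalised count + 1) was 0.920 between mbpa and mbpb, 0.900 between mbpb and plp1b and 0.890 between mbpa and plp1b. erbb3b had an r of 0.775 with plp1b and 0.708 with mbpa. sox10 had 0.444 with foxd3, and gap43 had -0.813 with elavl3. The elavl3 counts were near the limit of detection at 1 dpa, where gap43 peaked. elavl3 passed the filter through KO libraries at 0 and 4 dpa alone, so this r is not independent of the filter. Over all tested genes with a mean normalised count of at least 20, the 3 most like sox10 were epn1a (r = 0.720), arhgef15b (0.715) and sgpp1a (0.711), and those most like gap43 include S1PR5 (0.917) and TIMP2 (0.916). TIMP2, which encodes an inhibitor of metalloproteinases, averaged 486, 8734 and 814 normalised counts at 0, 1 and 4 dpa in KO and 439, 6418 and 831 in WT.

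Other Schwann cell genes, a list of 24 IDs of which 21 were tested, moved in both directions. For all lists the background at 4 against 0 dpa is 23.3% higher and 25.7% lower in KO and 25.9% higher and 29.6% lower in WT, with medians of -0.02 and -0.03. At 4 against 0 dpa 5 rose and 10 fell in KO and 5 rose and 10 fell in WT, with medians of -0.65 in KO and -0.64 in WT. Of these, 4 were higher and 8 lower in both genotypes, for which no share over all tested genes is given here. At 1 against 0 dpa 6 fell in KO (background 13.9%), and 3 rose and 6 fell in WT (background 19.1% higher and 21.1% lower). PMP22, encoding a further protein of compact peripheral myelin, had 1194, 896 and 966 normalised counts in KO and 1541, 1091 and 1279 in WT fins at 4 dpa. At 0 dpa it had 7669, 15778 and 11484 in KO and 7723, 11932 and 11344 in WT, which gives log2 changes of -3.46 in KO (SE 0.27, adjusted p = 7.83e-08) and -2.97 in WT (adjusted p = 4.96e-07). EGR2, the master transcription factor gene of myelination, had 13.4, 22.1 and 5.41 normalised counts in KO and 29.7, 4.98 and 0 in WT fins at 4 dpa. It fell from 0 to 4 dpa (log2 -2.96 in KO, adjusted p = 0.00630, and -3.67 in WT, SE 0.80, adjusted p = 0.00120). pou3f1, a factor gene of the promyelinating stage, fell as well (-3.22 in KO, adjusted p = 0.00294, and -3.30 in WT, adjusted p = 0.00208). It had 0, 2 and 0 reads at 4 dpa in KO and 0, 2 and 0 in WT, so that the fitted size depends on the added 1. pou3f1 passed the filter through libraries of earlier times alone, so these calls are not independent of the filter.

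FABP7 (the copy ENSDARG00000007697), a glial fatty acid binding protein gene, fell from 0 to 1 dpa in KO (-1.88, adjusted p = 0.0110) and in WT (-3.88, SE 0.51, adjusted p = 3.21e-05). At 4 dpa it had 197, 177 and 189 normalised counts in KO and 89.0, 129.6 and 178 in WT, against 8.69 to 22.8 over both genotypes at 1 dpa. Members of the list that rose from 0 to 4 dpa, named here after their values were seen, include both NGFR copies, genes of the neurotrophin receptor p75 that marks immature and repair Schwann cells in mammals. They rose by 1.61 (adjusted p = 3.44e-06) and 0.76 (adjusted p = 9.48e-04) in KO and by 1.55 (adjusted p = 6.04e-06) and 0.75 (adjusted p = 9.05e-04) in WT. On the same list 5 IDs rose and 10 fell in each genotype, pou3f1 among the latter, and SOX2 and l1camb did not pass the filter. Whether the clips held repair Schwann cells was not tested. ADGRG6, a receptor gene of myelination, rose by 0.95 in KO (adjusted p = 3.37e-04) and 0.87 in WT (adjusted p = 5.70e-04). cldnk, a claudin gene of zebrafish myelin, fell by 2.46 in KO (adjusted p = 1.96e-04) and 2.14 in WT (adjusted p = 5.01e-04). Sources other than Schwann cells, such as skin or blastema, were not separated from these values.

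Neurotrophic factors and their receptors (20 IDs, 18 tested) gave these counts: 8 rose and 1 fell in KO and 7 rose and 3 fell in WT at 4 against 0 dpa, with medians of 0.27 and 0.47. RET, the signalling receptor gene of the GDNF family, had 263, 229 and 289 normalised counts in KO and 292, 306 and 401 in WT at 4 dpa. It rose from 0 to 4 dpa by 1.66 in KO and 1.98 in WT. From 1 to 4 dpa it also rose in both genotypes, by 2.54 in WT (SE 0.25, adjusted p = 3.80e-06). A copy of SHH, kept on this list as a signal of the outgrowing fin and nerve, rose by 2.04 in KO (adjusted p = 0.0374) and 2.53 in WT (adjusted p = 0.0109). ntrk2b rose from 1 to 4 dpa in KO by 1.63 (adjusted p = 9.71e-04).

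Other axon and neuron genes (34 IDs, 26 tested) were mixed, with 7 higher and 5 lower in KO and 9 higher and 4 lower in WT at 4 against 0 dpa, and medians of 0.0051 in KO and 0.32 in WT. UCHL1, a ubiquitin hydrolase gene of neurons, fell by 3.25 in KO (SE 0.51, adjusted p = 9.88e-05) and 3.04 in WT (adjusted p = 1.59e-04). MAP1B, encoding a microtubule protein of growing axons, had 308, 273 and 298 normalised counts in KO and 228, 294 and 237 in WT at 4 dpa, against 25.7 to 60.9 over the earlier libraries of both genotypes. It rose by 2.497 in KO and 2.52 in WT from 0 to 4 dpa, and by 2.76 in KO from 1 to 4 dpa (SE 0.31, adjusted p = 1.07e-05). tubb5, a beta tubulin gene active in dividing cells and growing axons alike, rose by 2.80 in KO (adjusted p = 1.65e-05) and 1.99 in WT (adjusted p = 2.93e-04). A copy of P2RX3, a channel gene of sensory neurons, fell from 0 to 1 dpa in KO (-2.55, adjusted p = 0.0395).

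Neural crest genes other than the members (12 IDs, all tested) had 6 higher and 2 lower in KO and 6 higher and 3 lower in WT at 4 against 0 dpa, with medians of 0.50 and 0.37. A copy of EDNRB, an endothelin receptor gene, had 3752, 4448 and 5333 normalised counts in KO and 4131, 3593 and 2763 in WT fins at 1 dpa, against 72.1 to 90.2 over both genotypes at 0 dpa. It rose by 5.92 in KO (adjusted p = 4.60e-11) and 5.36 in WT (adjusted p = 1.70e-10). snai1b, a gene of cells leaving an epithelium, rose from 0 to 4 dpa by 3.65 in KO (adjusted p = 1.42e-08) and 2.78 in WT (adjusted p = 3.25e-07), and a copy of SOX9 by 1.74 in KO and 2.56 in WT. TFAP2A rose in both genotypes, by 1.33 in KO (adjusted p = 1.18e-04).

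Of 17 pigment cell genes, 5 rose and 7 fell in KO and 4 rose and 6 fell in WT at 4 against 0 dpa, with medians of -0.39 and -0.19. csf1ra, needed by yellow xanthophores and by macrophages, rose by 2.44 in KO and 2.68 in WT (adjusted p = 6.14e-05 and 2.76e-05), and pnp4a of iridophores fell by 2.17 in KO (adjusted p = 2.87e-04). gch2 fell from 0 to 4 dpa in both genotypes (by 1.96 in WT), and TFEC rose from 0 to 1 dpa in both (by 1.85 in WT). The 7 IDs of central nervous system glia, 5 of them tested, gave 1 lower in KO and 2 lower in WT at 4 against 0 dpa (medians -0.32 and -0.51), and OLIG2 was listed at 0 in all libraries. GFAP had 38.0 to 44.2 normalised counts in KO and 29.7 to 59.8 in WT at 4 dpa, and fell by 1.60 from 1 to 4 dpa in KO (adjusted p = 0.00244). AQP4 rose by 1.16 from 0 to 1 dpa in WT and was not called higher in KO. A copy of SLC1A3 fell over that interval in both genotypes, by 0.75 in WT. A copy of MYO6, on the lateral line list, rose by 0.67 from 0 to 1 dpa in WT (adjusted p = 0.0273).

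No ID of these 7 lists was called between genotypes by limma, edgeR or DESeq2, with 0 to 4 IDs of each list at an unadjusted p under 0.05 in any one comparison. Over all 22779 tested genes 465 to 1093 had an unadjusted p under 0.05 in limma, depending on the comparison. Because the lists were chosen by name and share their libraries, their counts describe these clips. With the share of the 5 most abundant genes as a covariate, 4 against 0 dpa calls drop in WT to 3 higher and 2 lower among the other Schwann cell genes, 3 and 2 among the neurotrophic genes, 3 and 1 among the axon and neuron genes, 1 and 2 among the crest genes and 2 and 2 among the pigment genes. Over all tested genes that fit called 8.85% higher and 6.52% lower in WT. In KO it called 5 higher and 7 lower among the other Schwann cell genes, 4 and 1 among the neurotrophic genes, 5 and 3 among the axon and neuron genes, 3 and 3 among the crest genes and 2 and 5 among the pigment genes, with 15.7% higher and 14.8% lower over all tested genes.

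**Figure D4:**
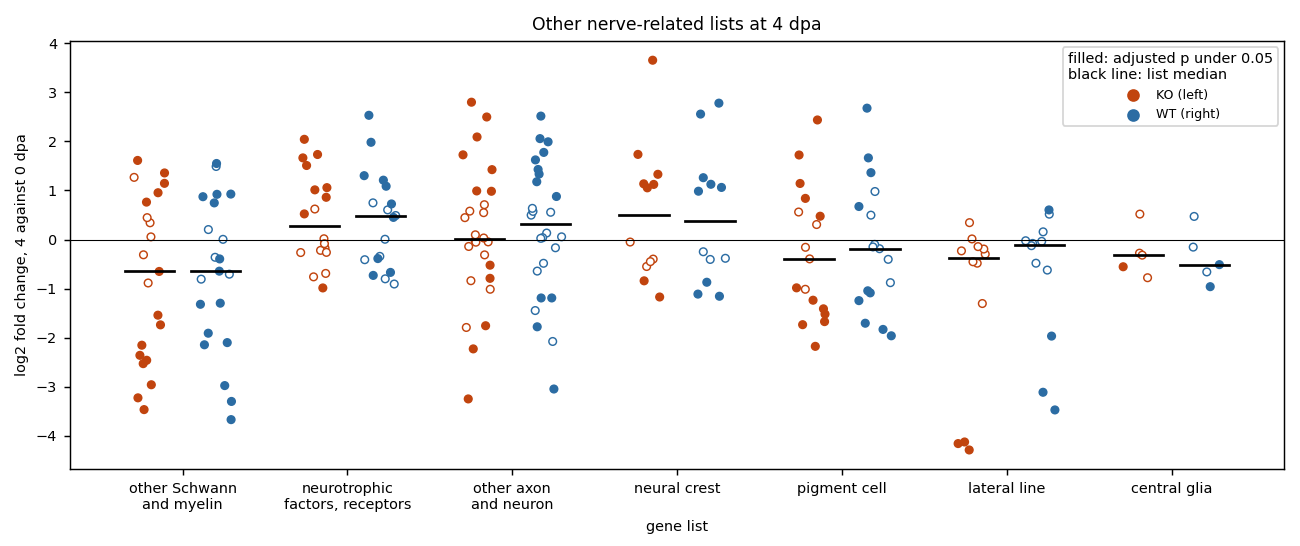
Log2 change from 0 to 4 dpa of every tested ID of the other lists, KO left and WT right in each list, with a black line at the median. The medians of the other Schwann cell genes are -0.65 in KO and -0.64 in WT, and those of the neurotrophic genes are 0.27 in KO and 0.47 in WT.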

How the data were processed

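Caudal fin RNA of 18 pools was sequenced as Tn5-tagged cDNA in paired ends of 100 bp, per the labels' protocols. The submitters' processing notes name Trim Galore 0.6.7, cutadapt 3.5, STAR 2.7.10 and the build danRer11; the sources used here do not give the annotation, strand setting or handling of shared reads. The deposited values (signal) are counts that the authors divided by a size factor for each library: with the factors recovered from the table's steps (0.401 to 2.56), 100% of values were whole reads within 0.001. Of 32520 IDs, 29201 received a symbol.

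limma 3.58.1 (R 4.3.3) was fitted with a mean-dependent trend to log2(signal + 1) of the 22779 IDs at 10 or more in at least 3 libraries, with a mean for each of the 6 groups and 12 residual degrees of freedom. Benjamini-Hochberg adjustment ran over all 22779. edgeR 4.0.16 and DESeq2 1.42.0 were run on the recovered reads as alternatives, beside other filters, pseudocounts, scalings and left-out libraries. The fits were also run on simulated data with changes of known size. They were set in 50 of the 22779 genes for each of the sizes 2, 4, 8 and 16-fold, and no other gene was changed. For KO against WT at 1 dpa limma recovered 22% of 2-fold and 72% of 4-fold changes, with 12 false calls. For WT at 4 against 0 dpa it recovered 18% and 78%, with 21 false calls. In the data limma called 55.6% of tested genes there, which loosens the adjusted threshold, so these rates do not describe that comparison. P-values measure the spread between libraries, each from its own pool of fish, so differences between pools and between library preparations are not separated.

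The members and lists were chosen with earlier results of these data known. The rule for named genes takes the members, up to 4 called IDs of each other list by the largest change over time, and the 3 genes most correlated with sox10 and gap43. Further genes of the lists are named beyond that rule, chosen after their values were seen. Results of some of these genes are not reported here, though counts over all 11 member IDs include them. A list of 7 fin genes was added after the table was seen, as a check of the tissue label. Sequences and coordinates are not used here.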

Additional observations from a re-analysis of the deposited data

Results flagged for a closer look

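gap43 is listed here because a rule looking for differences between the genotypes picked it from the member IDs by its values. Its fitted change from 0 to 4 dpa was -0.37 in KO (95% interval -0.94 to 0.20) and 0.61 in WT (0.04 to 1.18). Neither passed the threshold, and the KO interval spans both signs, so opposite directions are not shown. The KO change minus the WT change was -0.98 on the log2 scale (95% interval -1.78 to -0.17). All 3 KO libraries at 4 dpa (52.5, 61.0 and 73.0 normalised counts) lay below the KO mean at 0 dpa of 81.3. All 3 WT libraries at 4 dpa (79.2, 89.7 and 94.0) lay above the WT mean at 0 dpa of 60.04. gap43 was picked on these same libraries, so their positions are not separate evidence for opposite directions. In limma the KO change minus the WT change had an unadjusted p of 0.0201 and an adjusted p of 0.992. It did not pass over all tested genes. The single libraries at 0 dpa spread from 65.7 to 102 in KO and from 36.3 to 82.5 in WT, which overlaps with the values at 4 dpa in both genotypes.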

How the results depend on the processing

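Of the 28 called changes of members over time, 17 held under all alternatives run, and 416 of the 446 alternative values of the 28 stayed called in the same direction. In no alternative did a called value change sign. The count of members called between KO and WT at 4 dpa was 1 with DESeq2, which called 0.0659% of all tested genes there. For WT at 4 against 0 dpa it was 2 with the share of the 5 most abundant genes as a covariate, where calls over all tested genes dropped too, to 3502 against 12657 without it. For WT at 4 against 1 dpa it was 1 without a filter, 4 without the low-share libraries and 1 with the share as a covariate, where 11.1%, 34.3% and 19.9% of all tested genes were called, and 1 to 2 when single libraries were left out. Over all 22779 tested genes, leaving out single libraries gave 1577 to 2947 calls for WT at 4 against 1 dpa. For KO at 1 against 0 dpa leaving out single libraries gave 3 to 6 members, with 4765 to 7446 of the 22779 tested genes called. With the share as a covariate the WT changes from 0 to 4 dpa were -3.30 for mbpa (adjusted p = 0.122), -0.62 for mbpb (0.128) and -1.90 for plp1b (0.0867), and the WT change of mbpb from 0 to 1 dpa was -0.38 (0.265). The share moves with time in these libraries, so the covariate and time are partly confounded. Over 45 pairs of same-numbered libraries the correlation of deviations ran from -0.615 to 0.735, and 12 were over 0.1. Between KO and WT at 0 dpa it was 0.735 for replicate 1 and 0.603 for replicate 2, against -0.219 for replicate 3. With the replicate number as a block, 5 members were called in KO and 4 in WT at 1 against 0 dpa, 6 and 6 at 4 against 0 dpa, 6 and 2 at 4 against 1 dpa, and 0 between genotypes. Over all 22779 tested genes the block fit called 6481 in KO and 8992 in WT at 1 against 0 dpa. It called 11070 and 12556 at 4 against 0 dpa, 6082 and 2996 at 4 against 1 dpa, and 1 to 15 between genotypes at any one time. Low reads limit mbpa, plp1b and elavl3, where 3 reads in a WT library at 4 dpa equal a normalised count of 7.42 to 7.47.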

Other observations

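Genes outside the lists were also high in WT 4 dpa replicate 1 alone, and they are given as values chosen after they were seen. In replicates 1, 2 and 3 of WT at 4 dpa LECT2 had 586, 9.97 and 2.47 normalised counts, CNTNAP5 had 2575, 189 and 284, fabp1b.2 had 19699, 2559 and 2078, and lypc had 64.3, 4.98 and 4.95.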
